A study of Mus musculus with 36 samples.

Results

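The genes described here are 32 enzymes and regulators of sterol and fatty acid synthesis, out of 24411 genes in the deposited expression tables. They were chosen as a list of 31 gene symbols to which Msmo1, a sterol C4 methyl oxidase, was added, and all 32 were found in both tables and passed the filter on low values. The list holds 7 genes of the mevalonate steps, 11 of the squalene and sterol steps, 4 of regulation and sterol transport, 3 of acetyl-CoA and NADPH supply, 3 of fatty acid synthesis and elongation, and 4 desaturases. RNA-seq of total RNA gave the expression of haematopoietic stem and progenitor cells of mouse bone marrow, the cells from which all blood lineages arise. The cells were controls, labelled WT, or carried a conditional knockout of Taf1, the largest subunit of the general transcription factor TFIID. Both genotypes were sampled at day 0 and after 3 days in SCF and IL-3, cytokines that expand myeloid cells. The cultures were then divided. One portion received GM-CSF and M-CSF up to day 5 and M-CSF alone up to day 7 (the macrophage course), and the other SCF, IL-3 and G-CSF up to day 5 and G-CSF alone up to day 7 (the granulocyte course). The protocol names horse serum in the medium of the first 3 days and of the macrophage course. There were 12 groups of 3 libraries, and both courses share their libraries of days 0 and 3. The inducer of the deletion, the Cre line, the age of the mice and whether each library came from its own mouse are not given in the sources used here. The p-values therefore measure the spread between these libraries, which may be technical.

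Cholesterol is built from acetyl-CoA through mevalonate, isoprenoid units, squalene and a series of modified sterols, and fatty acids from the same acetyl-CoA through malonyl-CoA. Both routes are switched on by SREBP transcription factors, which are held in the endoplasmic reticulum while sterols are plentiful and cut free when sterols are scarce. Dividing cells need both products for new membrane, and desaturases place the double bonds that keep membrane lipids fluid.

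Promoters of the genes were examined because SREBP and its partner NF-Y bind short motifs close to the start of many of them. RefSeq promoter windows of 300 bases on GRCm38.p6, from 250 bases before to 50 after each start, matched 25 of the 32 genes with 31 windows. The sterol regulatory element, searched as TCACNCCAC on both strands, was found in 1 of the 25 genes (4.0%) and in 1.44% of all 27025 genes in the table. The NF-Y motif CCAAT, on both strands, was found in 21 of 25 genes (84.0%) and in 41.1% of all genes. The GC box GGGCGG was found in 21 of 25 genes and in 38.2% of all genes, and the TATA box TATAAA in 0 of 25 genes and in 15.7% of all genes. No match of one motif overlapped a match of another in these windows. The 27025 genes were not limited to those expressed in these cells, whereas all 32 synthesis genes passed the filter on low values. Shares among expressed genes were not taken, so the excess of a motif cannot be assigned to this pathway. A match is a description of letters and not evidence of binding.

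The 250 bases before the start are shown for Hmgcs1, the gene with the exact sterol element, and for Insig1 and Fasn, which lack it and were among the highest at day 3. Fasn was added after its values were seen. Capitals mark the exact sterol element and CCAAT on either strand, where CCAAT on the opposite strand reads ATTGG. The windows are chr13:119690101-119690350 on the plus strand for Hmgcs1, chr5:28071162-28071411 on the plus strand for Insig1 and chr11:120824548-120824797 on the minus strand for Fasn.
Hmgcs1: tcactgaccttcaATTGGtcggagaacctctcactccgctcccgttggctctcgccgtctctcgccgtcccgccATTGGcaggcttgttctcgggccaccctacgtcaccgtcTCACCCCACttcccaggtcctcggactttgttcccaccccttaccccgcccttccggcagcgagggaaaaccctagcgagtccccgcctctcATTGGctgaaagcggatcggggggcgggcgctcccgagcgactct
Insig1: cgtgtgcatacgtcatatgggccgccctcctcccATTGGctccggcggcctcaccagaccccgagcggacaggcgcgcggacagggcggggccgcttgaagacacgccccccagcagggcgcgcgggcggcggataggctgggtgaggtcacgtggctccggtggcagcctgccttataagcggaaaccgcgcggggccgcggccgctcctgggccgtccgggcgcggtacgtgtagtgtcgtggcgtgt
Fasn: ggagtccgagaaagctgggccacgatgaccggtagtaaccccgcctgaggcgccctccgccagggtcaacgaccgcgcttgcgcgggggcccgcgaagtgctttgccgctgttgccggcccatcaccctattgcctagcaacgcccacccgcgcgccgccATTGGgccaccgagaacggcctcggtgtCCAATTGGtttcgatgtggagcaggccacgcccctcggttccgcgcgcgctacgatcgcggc
In Hmgcs1 the element has the letters TCACCCCAC and its first base lies at position -137 from the start, with ATTGG at -237, -176 and -45. The Insig1 window holds 1 ATTGG, at -216. In Fasn an ATTGG lies at -90, and a CCAAT at -62 overlaps an ATTGG at -59.

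Values are TPM, a measure of transcript abundance scaled by gene length and to a fixed total, and log2 differences below are differences in mean log2(TPM + 1) with their SE. Between 10289 and 11226 genes reached 1 TPM in a library, and the read depth behind these values is unknown. Taf1 lay between 5.94 and 10.29 TPM in the 18 knockout libraries and between 9.62 and 16.32 TPM in the 18 control libraries, and at day 3 the libraries overlapped and the difference did not pass (limma adjusted p = 0.0711). The sources used here do not say which portion of the gene was removed. The 12 macrophage markers summed to 69.9 to 75 TPM in controls at day 0 and to 3320 to 4010 TPM at day 7 of the macrophage course, whose control libraries also held 37200 to 75100 TPM of 11 neutrophil markers. These are bulk samples, in which fewer cells of a type and less RNA per cell cannot be told apart.

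Replicate 1 was low for the synthesis genes in the middle of the culture, in controls and in part in the knockout. Control replicate 1 was the lowest of the 3 control libraries for 31 of 32 genes at day 3, for 32 at day 5 of the macrophage course and for 30 at day 5 of the granulocyte course, against 67.8%, 29.6% and 23.6% of all genes tested. Knockout replicate 1 was the lowest of its 3 libraries for 30 genes at day 3, against 64.6% of all genes tested. It was the lowest for 16 and 24 genes at day 5 of the macrophage and granulocyte course, against 38.8% and 47.6%. At day 7 of the macrophage course replicate 1 was the lowest for 24 genes in controls and 26 in the knockout, against 47.4% and 62.9%. At day 7 of the granulocyte course the counts were 12 and 22, against 61.3% and 66.8%. At day 5 of the macrophage course the 32 genes summed to 1054 TPM in control replicate 1 and to 2046 and 2144 TPM in the other control libraries. The same library held 58500 TPM of neutrophil markers against 165000 and 162000 TPM, and 2700 TPM of macrophage markers against 1830 and 1810 TPM. Values are given below without control replicate 1 on the day in question, and without it at days 3 and 5 together. The latter setting was chosen after the data were seen, from the low values of these same genes, and kept knockout replicate 1. Leaving out a library that is low for these genes raises their control means, so the changed counts are not independent evidence.

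**Figure D1:**
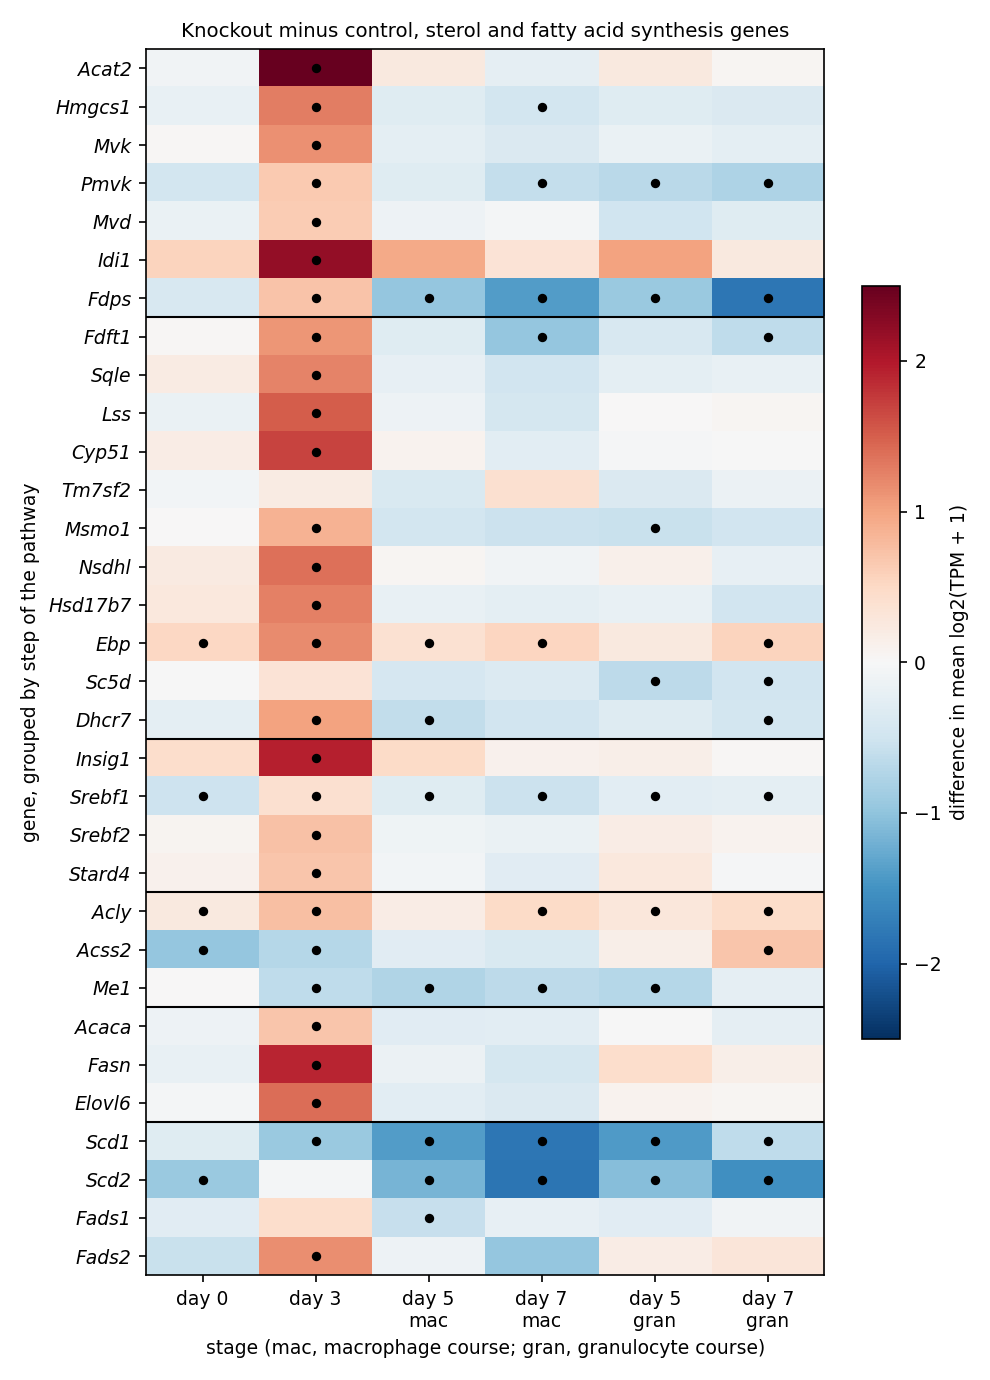
Knockout minus control difference in mean log2(TPM + 1) for each of the 32 genes (rows, grouped by step) at the 6 stages (columns; mac and gran, macrophage and granulocyte course), red higher and blue lower in the knockout, with a dot where the limma adjusted p is under 0.05. Day 3 is red for most genes, and Scd1, Scd2 and Fdps are blue at days 5 and 7.

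At day 0, before culture, the genotypes differed in few of the genes. In the knockout 2 of 32 genes were higher and 3 lower, where 13.1% of all genes tested were higher and 10.2% lower, and the median difference was -0.06 for the 32 genes and 0.06 for all genes. After median-of-ratios scaling of the libraries the split was 1 higher and 3 lower. It was 1 higher and 2 lower without control replicate 1, control replicate 3 or knockout replicate 3.

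Acss2, which makes acetyl-CoA from acetate, was at 12.4, 14.6 and 14.0 TPM in the control libraries and at 7.10, 5.46 and 6.99 TPM in the knockout libraries. The groups did not overlap, and Acss2 fell by 0.97 ± 0.18 (limma adjusted p = 0.000423). Scd2, a stearoyl-CoA desaturase that places a double bond in saturated fatty acids (chromosome 19, 44293674 to 44306864, plus strand, mm10), was at 52.7, 56.4 and 46.9 TPM in controls and at 32.3, 21.8 and 27.2 TPM in the knockout. It fell by 0.93 ± 0.30 (limma adjusted p = 0.0307), a call that was lost when any of 5 of the 6 libraries was left out. Srebf1, which encodes the SREBP-1 proteins, fell by 0.51 ± 0.11 (limma adjusted p = 0.00224), from 29.7, 35.7 and 33.6 TPM to 23.2, 21.1 and 24.1 TPM. Ebp, the sterol isomerase, rose by 0.51 ± 0.11 (limma adjusted p = 0.00211), from 41.3, 45.6 and 38.7 TPM to 61.5, 57.5 and 60.3 TPM. Acly, which makes cytosolic acetyl-CoA from citrate, rose by 0.25 ± 0.08 (limma adjusted p = 0.036), from between 110 and 120 TPM to between 128 and 143 TPM, and that call was lost after scaling (0.17, limma adjusted p = 0.137) and when any of 4 of the 6 libraries was left out (adjusted p 0.0662 to 0.128). Hmgcs1, Sqle, Insig1, Srebf2 and Fasn did not pass, with differences of -0.19, 0.20, 0.44, 0.06 and -0.18. Neutrophil markers summed to 23800 to 43500 TPM in the knockout and to 10300 to 18700 TPM in controls at this day, with 3 of 11 higher and 0 lower. Eosinophil markers were lower for 6 of 7 tested genes (median -2.55), erythroid markers for 4 of 9 (-0.82), mast cell and basophil markers for 3 of 7 (-0.81) and dendritic cell markers for 3 of 8 (-0.45), with 0 higher in each list. The part of these markers in the differences was not tested.

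At day 3 the picture was different, with 25 of the 32 genes higher in the knockout and 3 lower. Of all genes tested, 26.5% were higher and 26.7% lower, and the median difference was 0.94 for the 32 genes and -0.01 for all genes. The 25 higher genes were all 7 of the mevalonate steps, 9 of the 11 squalene and sterol genes, the 4 regulators, Acly, the 3 genes of fatty acid synthesis and elongation, and Fads2. The counts were 20 and 3 without control replicate 1 at day 3, and without it at days 3 and 5 they were 25 and 3.

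Among the mevalonate genes, Acat2, the cytosolic thiolase that joins acetyl-CoA units (chromosome 17, 12942890 to 12960747, minus strand, mm10), was at 6.32, 11.9 and 11.1 TPM in controls and at 48.7, 67.6 and 58.7 TPM in the knockout. Every knockout library was above every control library, and Acat2 rose by 2.49 ± 0.30, a ratio of 5.96 between mean TPM values (limma adjusted p = 1.2e-06). Idi1, the isomerase of isoprenoid units (chromosome 13, 8885501 to 8892451, plus strand, mm10), was at 9.81, 34.6 and 32.4 TPM in controls and at 87.0, 133 and 105 TPM in the knockout. It rose by 2.20 ± 0.44 (limma adjusted p = 0.000287), and its low control library was replicate 1. Both genes have close copies in the genome, so reads of Acat3 and Idi2 could enter these values. Hmgcs1, which makes HMG-CoA (chromosome 13, 119690379 to 119708260, plus strand, mm10), was at 24.3, 30.8 and 28.3 TPM in controls and at 65.6, 78.6 and 62.6 TPM in the knockout, and rose by 1.28 ± 0.17 (limma adjusted p = 3.55e-06). Its promoter is the one printed with the exact sterol element. Fdps, farnesyl diphosphate synthase (chromosome 3, 89093588 to 89101959, minus strand, mm10), was at 171, 303 and 306 TPM in controls and at 340, 470 and 435 TPM in the knockout. Mvk, Pmvk and Mvd, which phosphorylate and decarboxylate mevalonate products, also passed, with knockout to control ratios of 2.28, 1.57 and 1.57.

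On the way from squalene to cholesterol, Sqle, the epoxidase that is a rate-limiting step after mevalonate (chromosome 15, 59315077 to 59331192, plus strand, mm10), was at 21.0, 26.3 and 26.6 TPM in controls and at 50.5, 68.3 and 59.9 TPM in the knockout. It rose by 1.24 ± 0.20 (limma adjusted p = 2.67e-05), with no overlap between the groups. Fdft1, Lss, Cyp51, Msmo1, Nsdhl, Hsd17b7, Ebp and Dhcr7 rose with it, with ratios of mean TPM from 1.83 for Msmo1 to 3.24 for Cyp51, the demethylase of lanosterol. Lss, the cyclase that forms lanosterol, was at 3.03, 6.05 and 5.13 TPM in controls and at 12.2, 17.9 and 15.5 TPM in the knockout. The exceptions were Tm7sf2 and Sc5d, a sterol reductase and a sterol desaturase. Tm7sf2 was at 8.84, 17.1 and 15 TPM in controls and at 13.2, 17.9 and 15.4 TPM in the knockout, groups that overlapped. Part of the Fdft1 exons overlaps Ctsb on the opposite strand, part of Cyp51 overlaps Akap9 on the opposite strand, and part of Tm7sf2 overlaps Vps51 on the same strand, by 774, 166 and 532 bases in GENCODE M21. The sources used here do not say whether strand was used in counting, and reads of these neighbours could enter.

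The regulators moved the same way. Insig1, which retains the SREBP carrier in the endoplasmic reticulum and is itself an SREBP target (chromosome 5, 28071363 to 28078662, plus strand, mm10), was at 15.6, 19.7 and 19.3 TPM in controls and at 64.8, 82.7 and 71.1 TPM in the knockout. It rose by 1.94 ± 0.23, a ratio of 4.0 in mean TPM (limma adjusted p = 9.17e-07). Srebf2, which encodes the SREBP most tied to cholesterol synthesis, rose by 0.73 ± 0.20 (limma adjusted p = 0.00409), from 18.1, 25.9 and 22.7 TPM to 35.0, 37.9 and 38.4 TPM. Srebf1 rose by 0.40 ± 0.11 (limma adjusted p = 0.00557), from 24.4, 27.8 and 28.6 TPM to 34.6, 35.3 and 37.1 TPM, whereas it had been lower in the knockout at day 0. Stard4, a carrier of cholesterol between membranes, was at 11.3 to 19.3 TPM in controls and at 25.1 to 28.6 TPM in the knockout and also passed.

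**Figure D2:**
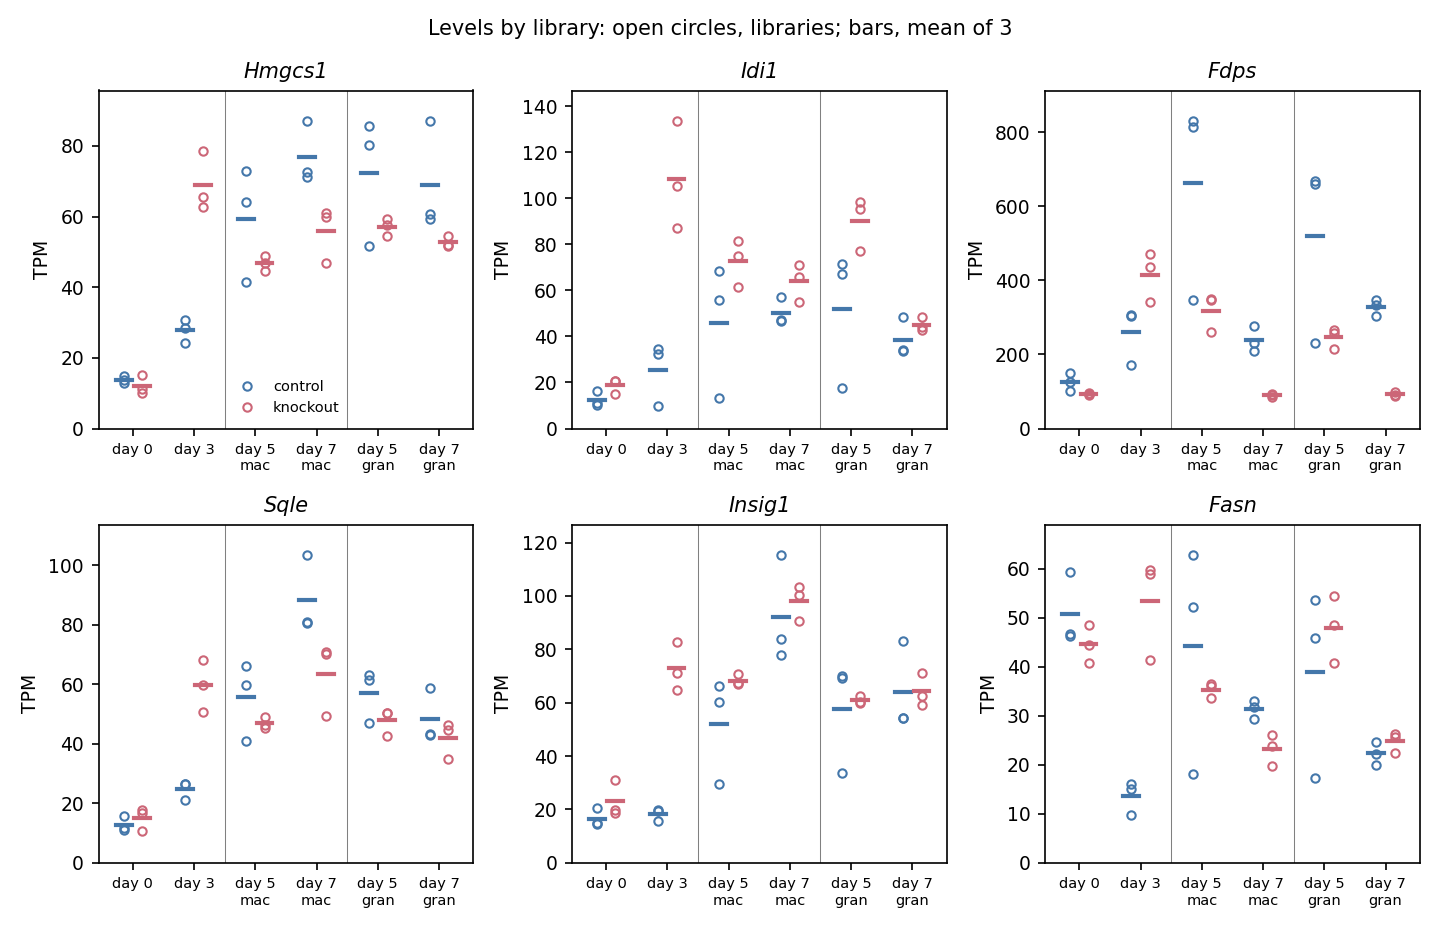
TPM (vertical axis, linear) of Hmgcs1, Idi1, Fdps, Sqle, Insig1 and Fasn in each library, control in blue and knockout in red, at day 0, day 3 and days 5 and 7 of the macrophage (mac) and granulocyte (gran) course. Circles are libraries and bars the mean of 3. At day 3 no knockout library of these genes lies within the control range, and Fdps lies near 90 TPM in the knockout at day 7 in both courses.

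Genes of fatty acid synthesis and elongation rose with the sterol genes at day 3. Fasn, fatty acid synthase (chromosome 11, 120805846 to 120824547, minus strand, mm10), was at 9.81, 16.1 and 15.1 TPM in controls and at 41.3, 58.9 and 59.8 TPM in the knockout, and rose by 1.90 ± 0.29 (limma adjusted p = 1.49e-05). Acaca, which makes malonyl-CoA, and Elovl6, which lengthens palmitate, rose as well, with ratios of 1.68 and 3.23. Acly was at 114 TPM in each of the 3 control libraries and at 176, 210 and 196 TPM in the knockout, and rose by 0.76 ± 0.08 (limma adjusted p = 4.05e-07). Fads2, a desaturase of polyunsaturated fatty acids, rose from 14.7, 36.9 and 34.0 TPM to 50.2, 68.4 and 66.1 TPM.

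The genes that make monounsaturated fatty acids did not rise. Scd2 was at 82.4, 103 and 99.8 TPM in controls and at 88.1, 101 and 87.9 TPM in the knockout, groups that overlapped, with a difference of -0.04 ± 0.30 (limma adjusted p = 0.932). The 3 lower genes were Scd1, the second stearoyl-CoA desaturase, Acss2 and Me1, malic enzyme, which supplies NADPH. Scd1 and Me1 fall outside the rule for named genes and were chosen after their values were seen. Scd1 was at 1.06, 4.12 and 3.95 TPM in controls and at 0.44, 1.42 and 1.22 TPM in the knockout, where control replicate 1 lay within the knockout range. Me1 was at 0.71, 1.17 and 0.90 TPM in controls and at 0.17, 0.31 and 0.24 TPM in the knockout, all low levels. Acss2 fell by 0.71 ± 0.18 (limma adjusted p = 0.00211), from 7.81, 12.8 and 13.1 TPM to 5.66, 7.06 and 6.31 TPM.

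Cell-type and growth markers moved at the same stage. Of the 12 proliferation genes 11 were higher in the knockout at day 3 and 0 lower, and their sum was 1880 to 2140 TPM against 1030 to 1520 TPM in controls. Of the 12 macrophage markers 11 were lower, with a sum of 258 to 436 TPM against 1270 to 1610 TPM, and of the 8 megakaryocyte markers 8 were lower, with a sum of 284 to 625 TPM against 1390 to 2400 TPM. Eosinophil markers were lower in 6 cases, with a sum of 826 to 996 TPM against 2720 to 3770 TPM. The part of these differences in the synthesis genes was not tested. No marker of these 4 lists was at 0 in either group.

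Genes of neighbouring pathways were counted at day 3 as well, in lists that were also chosen with earlier results in view. Of all genes tested, 26.5% were higher and 26.7% lower. Of 13 genes of SREBP processing and sterol sensing 4 were higher and 4 lower, near those shares, and the list's median was 0.00. Scap, which escorts SREBP to the Golgi, rose by 0.64 ± 0.11 (limma adjusted p = 5.57e-05), from a mean of 10.7 to 17.2 TPM, and Insig2, the other retention protein, fell by 0.51 ± 0.11 (limma adjusted p = 0.000742), from a mean of 9.11 to 6.12 TPM. Of 11 tested liver X receptor genes and targets, which act when sterols are abundant, 9 were lower and 1 higher, with a median of -1.02. Mylip, a ubiquitin ligase induced by these receptors, fell by 2.05 ± 0.18 (limma adjusted p = 2.17e-08), from a mean of 14.4 to 2.73 TPM. Apoe, a lipid carrier that macrophages make in quantity, fell by 3.5 ± 0.48 (limma adjusted p = 4.88e-06), from a mean of 63.0 to 6.21 TPM, at a stage where macrophage markers were lower too.

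Of 9 genes of cholesterol esterification and storage 5 were lower at day 3 and 0 higher, where 26.7% of all genes tested were lower and 26.5% higher. Among the 5 was Lipa, the lysosomal acid lipase, with means of 84.4 TPM in controls and 44.8 TPM in the knockout. Of 12 genes of the other branches of the mevalonate pathway 5 were higher and 1 lower, led by Coq2 and Pdss1 of ubiquinone synthesis, which rose by 0.88 ± 0.11 and 1.0 ± 0.16 (limma adjusted p = 2.63e-06 and 3.93e-05). Of 18 genes of fatty acid oxidation 4 were higher and 6 lower, with Acadl and Hadh, dehydrogenases of that route, falling by 0.61 ± 0.08 and 0.62 ± 0.11 (limma adjusted p = 4.58e-06 and 7.34e-05). Of 19 tested genes of other fatty acid and glycerolipid synthesis 7 were higher and 4 lower.

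At day 5 few of the genes were still higher in the knockout. In the macrophage course 1 of 32 genes was higher in the knockout and 7 lower, where 5.11% of all genes tested were higher and 37.9% lower, and the median was -0.25 for the 32 genes and -0.23 for all genes. After scaling, which moved the median of all genes from -0.228 to -0.016, the split was 4 higher and 4 lower. These counts depended on control replicate 1. Without that library at this day 20 genes were lower and 0 higher, and without it at days 3 and 5 the counts were 23 lower and 1 higher. With only the groups of the contrast fitted, 3 were lower and 1 higher.

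Scd2 was at 61.7, 70.5 and 88.4 TPM in controls and at 55.6, 23.8 and 24.7 TPM in the knockout at day 5 of the macrophage course. The groups did not overlap, although knockout replicate 1 came close to the controls, and Scd2 fell by 1.16 ± 0.30 (limma adjusted p = 0.00448). Dhcr7, the last reductase on the way to cholesterol, fell by 0.62 ± 0.19 (limma adjusted p = 0.0138), from 6.01, 9.80 and 12.9 TPM to 5.78, 5.48 and 5.56 TPM, and Fads1, a desaturase of polyunsaturated fatty acids, fell by 0.57 ± 0.20 (limma adjusted p = 0.0274), from 18.8, 29.9 and 31.6 TPM to 16.2, 17.4 and 18.2 TPM. Both calls were lost after scaling, at -0.40 and -0.33 (limma adjusted p = 0.0892 and 0.174), that of Dhcr7 also without control replicate 3 (adjusted p 0.107) and that of Fads1 when any of 4 of the 6 libraries was left out (adjusted p 0.0585 to 0.126). Srebf1 fell by 0.31 ± 0.11 (limma adjusted p = 0.0296), with overlapping groups, and was at -0.06 after scaling (limma adjusted p = 0.718), a call also lost when any of 4 of the 6 libraries was left out (adjusted p 0.0504 to 0.163). Ebp rose by 0.39 ± 0.11 (limma adjusted p = 0.00694), from 42.7, 55.3 and 55.4 TPM to 66.0, 65.4 and 69.6 TPM, a call lost without control replicate 1 at this day (0.27, limma adjusted p = 0.0513) and kept without it at days 3 and 5 (0.27, limma adjusted p = 0.0119).

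Fasn and Idi1 show how far 1 library reached at that day. Fasn was at 18.1, 52.2 and 62.7 TPM in controls and at 36.1, 33.6 and 36.4 TPM in the knockout, which gave -0.14 ± 0.29 and did not pass (limma adjusted p = 0.708). Without control replicate 1 at day 5 the difference was -0.68 (limma adjusted p = 0.00556). Idi1 was at 13.1, 56.0 and 68.6 TPM in controls and at 61.5, 81.4 and 75.1 TPM in the knockout and did not pass. Hmgcs1, at 41.5, 64.1 and 72.8 TPM in controls and 46.9, 48.9 and 44.6 TPM in the knockout, was at -0.30 with all libraries (limma adjusted p = 0.156) and at -0.54 without that library (limma adjusted p = 0.00869). Insig1, Acly, Sqle and Srebf2 did not pass, with differences of 0.47, 0.18, -0.21 and -0.10, of which Insig1 and Acly passed after scaling (0.72 and 0.44, limma adjusted p = 0.0177 and 0.000339).

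In the granulocyte course at day 5, 1 gene was higher and 8 lower, where 9.2% of all genes tested were higher and 22.8% lower, with medians of -0.17 and -0.09. After scaling the split was 3 higher and 6 lower, with only the groups of the contrast fitted 0 higher and 4 lower, and without control replicate 1 at days 3 and 5 it was 0 higher and 15 lower. Leaving out knockout replicate 1 left 5 called, 0 higher.

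Sc5d, which was not among the genes higher at day 3, was at 28.0, 37.4 and 38.1 TPM in controls and at 19.0, 23.8 and 21.1 TPM in the knockout at day 5 of the granulocyte course. The groups did not overlap, and Sc5d fell by 0.66 ± 0.15 (limma adjusted p = 0.00197). Scd2 fell by 1.07 ± 0.20 (limma adjusted p = 0.000414), from 91.1, 91.6 and 75.2 TPM to 52.2, 35.3 and 35.7 TPM. Msmo1 was at 75.7, 112 and 112 TPM in controls and at 60.3, 72.0 and 68.3 TPM in the knockout, a fall of 0.55 ± 0.21 that lay just inside the threshold (limma adjusted p = 0.0498). Srebf1 fell by 0.26 ± 0.09 (limma adjusted p = 0.0369) and the gene that rose was Acly, by 0.29 ± 0.09 (limma adjusted p = 0.0194), from 104, 134 and 130 TPM to 152, 147 and 149 TPM. The Msmo1 and Srebf1 calls were lost after scaling (-0.47 and -0.18, limma adjusted p = 0.0692 and 0.165), and the Acly call without control replicate 1 of this day (0.18, limma adjusted p = 0.122) or knockout replicate 1 (adjusted p 0.0574). The Msmo1 and Srebf1 calls were also lost when any of 5 and of 4 of the 6 libraries was left out (adjusted p from 0.0739 to 0.151 and from 0.0504 to 0.132). Hmgcs1, Sqle, Insig1, Srebf2 and Fasn did not pass, with differences of -0.30, -0.24, 0.15, 0.19 and 0.43, and without control replicate 1 of this day the difference was -0.53 for Hmgcs1 (limma adjusted p = 0.0156) and -0.06 for Fasn (limma adjusted p = 0.839).

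Of the 12 proliferation genes 8 were lower in the knockout at day 5 of the macrophage course, where 37.9% of all genes were, with a median of -0.32 against -0.23 and sums of 1400 to 1420 against 1620 to 1800 TPM. On the granulocyte side 3 of 12 were lower, near the 22.8% of all genes, with a median of -0.14 against -0.09 and sums of 1540 to 1580 against 1750 to 1810 TPM. Macrophage markers were lower for 9 and 11 of 12 genes, and dendritic cell markers were higher for 6 and 4 of 8. Neutrophil markers in the macrophage course summed to 190000 to 249000 TPM in the knockout and 58500 to 165000 TPM in controls, although 1 of the 11 was higher and 3 were lower, with a median of -0.16. The part of these differences in the synthesis genes was not tested.

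At day 7 of the macrophage course 2 genes were higher and 8 lower, where 27.4% of all genes tested were higher and 12.5% lower. The median was -0.37 for the 32 genes and 0.12 for all genes. Scaling moved the median of all genes from 0.117 to -0.011, and 14 of the 32 genes were then lower and 2 higher. Neutrophil markers were lower for 7 of 11 genes at this stage (median -1.46) and dendritic cell markers higher for 6 of 8 (1.07). Megakaryocyte markers summed to 1820 to 2260 TPM against 418 to 442 TPM in controls, with 2 of 8 higher and 1 lower, and the part of these markers in the synthesis genes was not tested.

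Scd2 had the largest fall among the genes named by rule. It was at 115, 96.6 and 43.4 TPM in controls and at 29.6, 17.1 and 19.1 TPM in the knockout, a fall of 1.83 ± 0.30 (limma adjusted p = 0.000103), with control replicate 3 the closest to the knockout libraries. Fdps was at 209, 230 and 276 TPM in controls and at 84.9, 91.9 and 91.5 TPM in the knockout, and fell by 1.40 ± 0.26 (limma adjusted p = 0.000304). Fdft1, squalene synthase, which uses the product of Fdps, was at 24.6, 25.6 and 31.5 TPM in controls and at 11.8, 14.9 and 13.9 TPM in the knockout, and fell by 0.96 ± 0.23 (limma adjusted p = 0.00289). Srebf1 fell by 0.53 ± 0.11 (limma adjusted p = 0.000917), from 40.2, 43.9 and 35.7 TPM to 27.6, 27.7 and 26.3 TPM. Hmgcs1 fell by 0.46 ± 0.17 (limma adjusted p = 0.0371), from 71.3, 72.6 and 87.0 TPM to 46.9, 61.1 and 60.0 TPM. The call of Hmgcs1 was lost without a filter on low values and when any of 5 of the 6 libraries was left out.

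The genes that were higher were Ebp and Acly. Ebp was at 59.7, 59.9 and 71.8 TPM in controls and at 90.4, 92.6 and 95.7 TPM in the knockout, and rose by 0.54 ± 0.11 (limma adjusted p = 0.000685). Acly was at 107, 116 and 122 TPM in controls and at 152, 163 and 167 TPM in the knockout, and rose by 0.48 ± 0.08 (limma adjusted p = 0.000172). Sqle, Fasn, Insig1 and Srebf2 did not pass, with differences of -0.48, -0.43, 0.11 and -0.16. Sqle was at 80.9, 80.7 and 103 TPM in controls and at 49.4, 70.2 and 70.7 TPM in the knockout, groups that did not overlap, and passed after scaling (-0.64, limma adjusted p = 0.00861).

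At day 7 of the granulocyte course 3 genes were higher and 8 lower, where 32.1% of all genes tested were higher and 12% lower, with medians of -0.20 and 0.17. Scaling moved the median of all genes from 0.165 to -0.020 and gave 1 gene higher and 13 lower. Leaving out 1 library left between 6 and 8 genes called, with 6 without control replicate 1 or knockout replicate 2 and 7 without control replicate 2, control replicate 3 or knockout replicate 1.

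Fdps was at 333, 303 and 347 TPM in controls and at 97.8, 89.0 and 91.7 TPM in the knockout, a ratio of 0.283 in mean TPM and a fall of 1.81 ± 0.28 (limma adjusted p = 4.12e-05). No knockout library came near a control library. Scd2 was at 70.9, 82.4 and 38.2 TPM in controls and at 19.9, 20.1 and 20.9 TPM in the knockout, and fell by 1.54 ± 0.20 (limma adjusted p = 6.99e-06). Pmvk, phosphomevalonate kinase, fell by 0.77 ± 0.21 (limma adjusted p = 0.00595), from 40.4, 39.4 and 48.9 TPM to 25.7, 23.5 and 24.8 TPM. Srebf1 fell by 0.25 ± 0.09 (limma adjusted p = 0.0327), from between 31.4 and 33.4 TPM to between 25.5 and 30.7 TPM, a call lost with only the groups of the contrast fitted (adjusted p 0.0953) and when any of 5 of the 6 libraries was left out (adjusted p 0.0517 to 0.133).

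Ebp and Acly were again higher, at 65.0 to 70.4 TPM against 42.1 to 53.6 TPM and at 132 to 149 TPM against 97.6 to 113 TPM, with rises of 0.55 ± 0.12 and 0.45 ± 0.09 (limma adjusted p = 0.000716 and 0.000645), of which that of Acly did not pass after scaling (0.22, limma adjusted p = 0.0907). The remaining higher gene, Acss2, was at 8.08, 8.10 and 8.40 TPM in controls and at 7.65, 18.8 and 18.1 TPM in the knockout. Its knockout replicate 1 lay below all 3 controls, so the groups overlapped, and Acss2 was named after its values were seen. Hmgcs1 was at -0.36 (limma adjusted p = 0.0915) and passed after scaling (-0.58, limma adjusted p = 0.0133), while Sqle, Insig1, Srebf2 and Fasn did not pass, with differences of -0.19, 0.03, 0.09 and 0.15. Stem and progenitor markers were higher for 8 of 10 genes at this stage, summing to 112 to 174 TPM against 38.6 to 59.2 TPM, and megakaryocyte markers for 6 of 8, summing to 1240 to 1690 TPM against 302 to 504 TPM. Macrophage markers were lower for 8 of 12 genes and higher for 2, and neutrophil markers lower for 6 of 11 (median -1.39). The part of these markers in the synthesis genes was not tested.

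**Figure D3:**
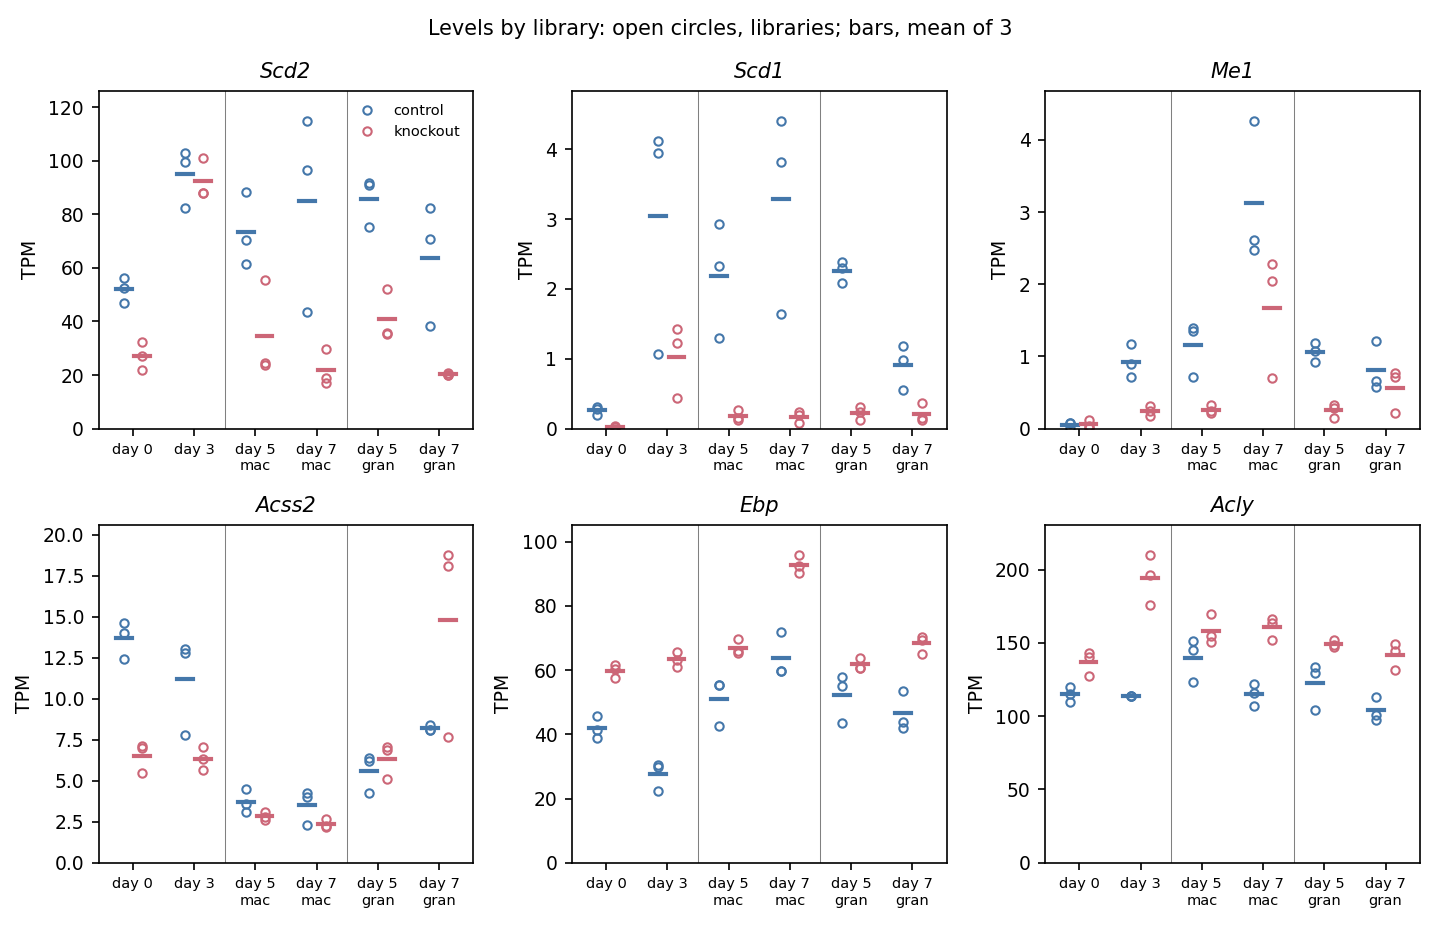
TPM (vertical axis, linear) of Scd2, Scd1, Me1, Acss2, Ebp and Acly in each library, with colours, stages and bars as in the plot of Hmgcs1 and Fasn. The stearoyl-CoA desaturases lie low in the knockout at days 5 and 7, at most 55.6 TPM for Scd2, and Ebp and Acly lie high.

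Followed through all 6 stages, the 32 genes followed a few patterns, which were described after the values were seen. Of the 25 genes higher in the knockout at day 3, 16 passed in none of the 4 later comparisons, 7 were lower in at least 1 of them, and 2, Ebp and Acly, were higher in 3 each. Without control replicate 1 at days 3 and 5, 18 of 25 were lower in at least 1 later comparison and 5 passed in none. That library was picked for its low values of these genes, so more lower calls follow in part from the choice. After scaling 11 were lower, 4 higher and 10 passed in none. With all libraries the 7 were Hmgcs1, Pmvk, Fdps, Fdft1, Msmo1, Dhcr7 and Srebf1. Ebp and Acly were higher in 5 of the 6 comparisons. Scd2 and Scd1 were lower in 5, Me1 in 4 and Srebf1 in 5 with 1 rise, and Tm7sf2 passed in none.

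Scd1 stayed at a low level throughout, but its libraries separated by genotype at most stages. At day 5 of the granulocyte course it was at 2.39, 2.30 and 2.08 TPM in controls and at 0.12, 0.24 and 0.31 TPM in the knockout. At day 7 of the macrophage course it was at 4.40, 3.81 and 1.64 TPM in controls and at 0.20, 0.08 and 0.23 TPM in the knockout. Scd1 and Scd2 lie close together on chromosome 19 and resemble each other in sequence, so reads could be divided between them. Adipocyte markers summed to 93.3 to 153 TPM in controls and to 41.6 to 51.9 TPM in the knockout at that stage, Lep was at 0 in both groups, only 1 of 6 of these genes passed the filter on low values, and their part in the result was not tested.

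In knockout cells the 32 genes reached their highest mean level at day 3 in 22 cases and at day 7 of the macrophage course in 7. In controls the highest mean was at day 7 of the macrophage course for 16 genes, at day 5 of either course for 11, at day 0 for 3 and at day 3 for 2. That order rested on control replicate 1. Without it at days 3 and 5 the highest control mean was at day 5 of the granulocyte course for 13 genes, at day 5 of the macrophage course for 7, at day 7 of the macrophage course for 7, at day 3 for 3 and at day 0 for 2. Acat2 peaked at 58.4 TPM at day 3 in the knockout and at 33.7 TPM at day 7 of the macrophage course in controls, or at 43 TPM at day 5 of the granulocyte course without that replicate. Hmgcs1 peaked at 69.0 TPM at day 3 in the knockout and at 77.0 TPM at day 7 of the macrophage course in controls, or at 82.9 TPM at day 5 of the granulocyte course without that replicate.

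How the genes moved in controls alone gives the course that the knockout left. From day 0 to day 3, 13 of 32 genes rose and 8 fell, where 33.3% of all genes tested rose and 39.6% fell, with medians of 0.39 and -0.07. The counts were 15 and 5 without control replicate 1 at day 3, and without it at days 3 and 5 they were 20 and 6. Mvd, Msmo1 and Tm7sf2 had the 3 largest rises, 2.10 ± 0.21, 1.88 ± 0.22 and 1.47 ± 0.18 (limma adjusted p = 1.67e-08, 1.51e-07 and 3.49e-07), and Mvd went from 5.55, 9.34 and 5.62 TPM to 26.6, 34.3 and 35.0 TPM. Hmgcs1, Sqle and Scd2 rose by 0.96 ± 0.17, 0.90 ± 0.20 and 0.86 ± 0.30 (limma adjusted p = 3.8e-05, 0.000331 and 0.0155), and Scd2 did not pass without the control day 0 replicate 3 (adjusted p 0.0503).

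The 8 genes that fell in controls were all 3 of fatty acid synthesis and elongation, Acat2 and Mvk of the mevalonate steps, Ebp and Dhcr7 of the sterol steps, and Srebf1. Fasn fell by 1.84 ± 0.29 (limma adjusted p = 7.77e-06), from 46.3, 59.3 and 46.6 TPM at day 0 to 9.81, 16.1 and 15.1 TPM at day 3. Acat2 fell by 1.39 ± 0.30 and Acaca by 1.01 ± 0.17 (limma adjusted p = 0.000313 and 2.18e-05). Srebf1 fell by 0.28 ± 0.11 (limma adjusted p = 0.0283), a call lost after scaling (-0.20, limma adjusted p = 0.137). It was also lost with only the groups of the contrast fitted (limma adjusted p = 0.0506). The same held when any of 3 of the 6 libraries was left out (adjusted p 0.0667 to 0.124). In the knockout Fasn was at 48.4, 40.8 and 44.5 TPM at day 0 and at 41.3, 58.9 and 59.8 TPM at day 3. The step from day 0 to day 3 differed by genotype for 22 of the 32 genes, all 22 with the larger change upward in the knockout and 0 the other way, where 15% of all genes tested differed upward and 17.3% downward. The step differed upward for 15 genes and downward for 1 without control replicate 1 at day 3. The median of that difference was 1.01 for the 32 genes and -0.05 for all genes. It was 2.08 ± 0.40 for Fasn, 1.5 ± 0.32 for Insig1, 1.47 ± 0.24 for Hmgcs1, 1.03 ± 0.28 for Sqle, 0.91 ± 0.16 for Srebf1 and 0.51 ± 0.12 for Acly (limma adjusted p = 0.000766, 0.00173, 0.000168, 0.00776, 0.000303 and 0.00293). Proliferation genes fell for 7 of 12 in controls over these days, and their step differed upward in the knockout for 7 of 12.

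From day 3 to day 5 the controls rose in turn. In the macrophage course 19 genes rose and 2 fell, where 25.6% of all genes tested rose and 24.6% fell, with medians of 0.67 and 0.01. In the granulocyte course 22 rose and 2 fell, where 23.4% rose and 20.8% fell, with medians of 0.78 and 0.01. With only the groups of the contrast fitted the counts were 13 and 1, and 12 and 1. The falling genes were Tm7sf2 and Acss2 in both courses, which share their day 3 libraries.

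Hsd17b7, a sterol ketoreductase, had the largest rise of the named genes in the macrophage course, 1.83 ± 0.29 (limma adjusted p = 3.45e-05), from 2.72, 3.86 and 3.22 TPM at day 3 to 5.99, 19.5 and 22.8 TPM at day 5. Fasn rose by 1.48 ± 0.29, Insig1 by 1.39 ± 0.23, Sqle by 1.12 ± 0.20, Hmgcs1 by 1.04 ± 0.17, Srebf2 by 0.63 ± 0.20 and Acly by 0.29 ± 0.08 (limma adjusted p = 0.000254, 4.89e-05, 9.21e-05, 4.45e-05, 0.0119 and 0.00659), and the Srebf2 call was lost when any of 3 of the 6 libraries was left out (adjusted p 0.0519 to 0.113). Acss2 fell by 1.35 ± 0.18 (limma adjusted p = 3.41e-06), to 3.12, 3.57 and 4.49 TPM. In the granulocyte course Hsd17b7 and Acat2 rose by 1.52 ± 0.27 and 1.52 ± 0.30 (limma adjusted p = 0.000173 and 0.000383), Insig1 by 1.54 ± 0.23, Hmgcs1 and Fasn by 1.32 ± 0.17 and 1.32 ± 0.27, Sqle by 1.18 ± 0.18, Srebf2 by 0.52 ± 0.17 and Srebf1 by 0.23 ± 0.09 (limma adjusted p = 2.36e-05, 4.63e-06, 0.000543, 3.89e-05, 0.019 and 0.0432). The Srebf2 and Srebf1 calls were lost with only the groups of the contrast fitted (limma adjusted p = 0.125 and 0.144) and when any of 3 and of 4 of the 6 libraries was left out (adjusted p 0.081 to 0.125 and 0.0594 to 0.179). Acss2 fell by 0.87 ± 0.24 (limma adjusted p = 0.00526).

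The step from day 3 to day 5 differed by genotype for 25 genes on the way to macrophages and 23 in the granulocyte course, in every case downward in the knockout. Of all genes tested, 29.2% and 15.9% differed downward and 5.44% and 5.57% upward, and the medians were -1.28 and -1.22 for the 32 genes and -0.24 and -0.10 for all genes. After scaling 17 genes differed downward in the macrophage course and 0 upward, and in the granulocyte course 21 downward and 1 upward. The difference was -2.04 ± 0.40 for Fasn and -1.58 ± 0.24 for Hmgcs1 in the macrophage course (limma adjusted p = 0.000826 and 0.000108). In the granulocyte course it was -1.47 ± 0.38 for Fasn and -1.58 ± 0.24 for Hmgcs1 (limma adjusted p = 0.009 and 0.000264). The Fasn call of the granulocyte course was lost with only the groups of the contrast fitted (limma adjusted p = 0.0516). These differences, like those of the first step, share the day 3 libraries of both genotypes.

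From day 5 to day 7 the counts of genes that moved in controls turned on control replicate 1. In the macrophage course 7 rose and 3 fell, where 22.9% of all genes tested rose and 16.2% fell, with medians of 0.18 and 0.04, but without control replicate 1 at day 5 the split was 3 and 8, without it at days 3 and 5 it was 3 and 10, and with only the groups of the contrast fitted 3 and 1. Fads1 rose by 0.99 ± 0.20 (limma adjusted p = 0.000519), from 18.8, 29.9 and 31.6 TPM to 46.6, 50.1 and 63.8 TPM. Insig1 rose by 0.87 ± 0.23, Sqle by 0.67 ± 0.20 and Srebf1 by 0.30 ± 0.11 (limma adjusted p = 0.00445, 0.00912 and 0.0357), and of these Sqle and Srebf1 did not pass without control replicate 1 at day 5 (0.47 and 0.23, limma adjusted p = 0.0632 and 0.133). Sqle was lost without control day 7 replicate 3 too (adjusted p 0.0564), and Srebf1 when any of 4 of the 6 libraries was left out (adjusted p 0.0771 to 0.153). Insig1 and Srebf1 did not pass with only the groups of the contrast fitted (limma adjusted p = 0.0908 and 0.116). Fdps fell by 1.38 ± 0.26 (limma adjusted p = 0.000234), from 347, 829 and 814 TPM to 209, 230 and 276 TPM, and Acly fell by 0.28 ± 0.08 (limma adjusted p = 0.0113). The Acly call did not hold without control day 5 replicate 3 or control day 7 replicate 1 (adjusted p 0.0675 and 0.0584). Nor did it hold with only the groups of the contrast fitted (limma adjusted p = 0.11).

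In the granulocyte course 0 genes rose and 3 fell between these days, where 10% of all genes tested rose and 28% fell, with medians of -0.21 and -0.15. The 3 were Mvd, Elovl6 and Scd1, named after their values were seen, and after scaling 1 rose and 1 fell. Without control replicate 2 or 3 at day 5 or control replicate 1 at day 7, 1 gene was called. Without control replicate 1 at day 5 of this course 14 genes were called, and without it at days 3 and 5 the counts were 0 and 18. Between these days the step differed by genotype for 1 gene in the macrophage course, Tm7sf2, where 34.3% of all genes tested differed upward and 1.38% downward, and after scaling 0 genes differed upward and 1 downward. In the granulocyte course limma called 0 of the 32 genes, where 13.1% of all genes tested differed upward and 0.991% downward, and 3 of the 32 had an unadjusted p under 0.05. Tm7sf2, named after its values were seen, was at 7.33, 8.34 and 10 TPM at day 5 and at 6.85, 7.57 and 7.89 TPM at day 7 in controls, and at 7.73, 5.53 and 5.81 TPM and then 8.46, 10.7 and 11.4 TPM in the knockout.

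**Figure D4:**
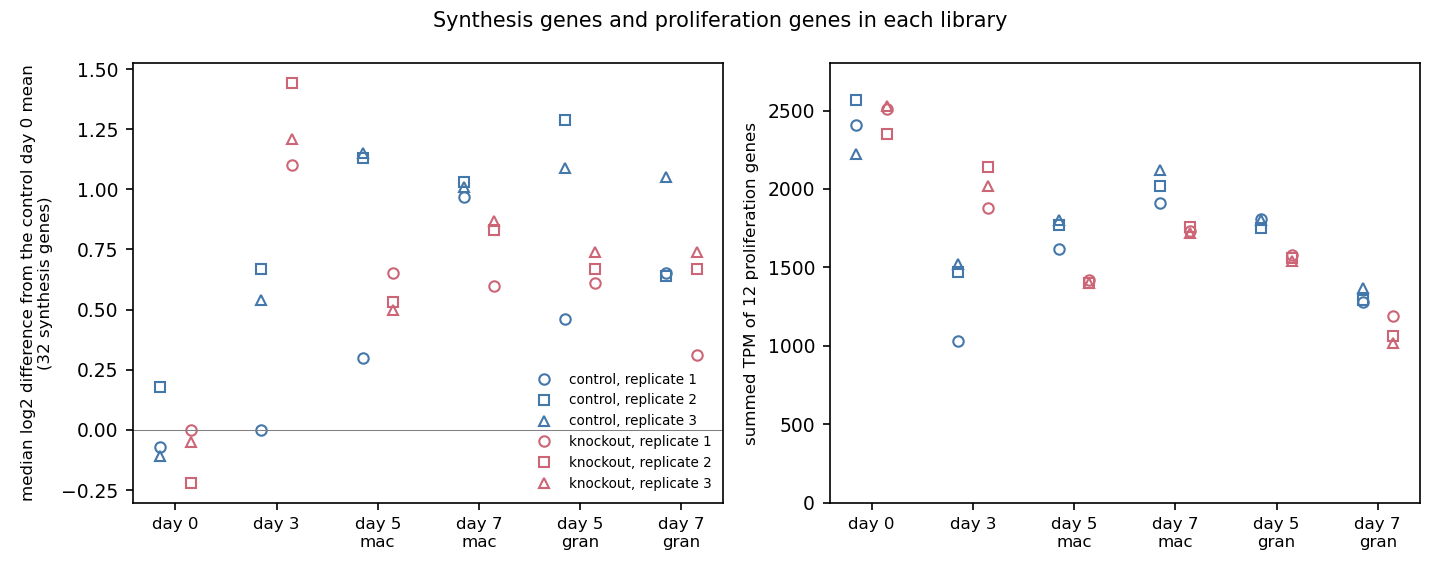
For each library by stage, the median over the 32 synthesis genes of log2(TPM + 1) minus the control day 0 mean (left) and the summed TPM of 12 proliferation genes (right). Blue marks control and red knockout, circles, squares and triangles are replicates 1, 2 and 3, and mac and gran are the macrophage and granulocyte courses. Knockout libraries lie at 1.1 to 1.44 at day 3, and control replicate 1 lies at 0.30 at day 5 of the macrophage course, where the other controls lie at 1.13 and 1.15.

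The 2 courses were compared in controls at days 5 and 7, and at both the genes were called no more often than genes in general. At day 5 limma called 0 of 32 genes between macrophage and granulocyte course, where 0.961% of all genes tested were higher and 2.05% lower in the macrophage course, and 0 of the 32 had an unadjusted p under 0.05 against 11.9% of all genes. Control replicate 1 was low in both courses, with sums of 1054 and 1018 TPM for the 32 genes. The fit did not pair the courses, so this shared spread enters the error. The 0 calls therefore do not show that the courses were equal for these genes. At day 7, 6 genes were higher in the macrophage course and 1 lower, where 34% and 9.81% of all genes tested were, with medians of 0.33 and 0.20. Scaling moved the median of all genes from 0.202 to 0.035 and gave 4 higher and 1 lower, and with only the groups of the contrast fitted there were 9 and 3.

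Sqle was at 80.9, 80.7 and 103 TPM in the macrophage course and at 43.0, 43.2 and 58.7 TPM in the granulocyte course at day 7 in controls, a difference of 0.86 ± 0.18 (limma adjusted p = 0.000864). Fads1 was at 46.6, 50.1 and 63.8 TPM against 25.3, 25.3 and 43.1 TPM, a difference of 0.79 ± 0.22 (limma adjusted p = 0.00638). Ebp and Srebf1 differed by 0.45 ± 0.11 and 0.29 ± 0.11 (limma adjusted p = 0.0035 and 0.0427), and neither passed after scaling (0.26 and 0.10, limma adjusted p = 0.138 and 0.6). The Srebf1 call was also lost when any of 5 of the 6 libraries was left out (adjusted p 0.0521 to 0.169). Me1 and Scd1 were the other higher genes, at low levels. Acss2 was the lower gene, at 3.99, 4.24 and 2.29 TPM against 8.08, 8.10 and 8.40 TPM, a difference of -1.06 ± 0.24 (limma adjusted p = 0.00166). All 12 proliferation genes were higher in the macrophage course at that day, with sums of 1910 to 2120 TPM against 1280 to 1370 TPM, and their part in these differences was not tested.

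The difference between courses depended on genotype for few of the 32 genes. At day 5 limma called 0 genes, where 0.0866% and 0.164% of all genes tested were called upward and downward, and 0 of the 32 had an unadjusted p under 0.05 against 10.6% of all genes. The shared low values of control replicate 1 enter the error of this test too. At day 7 it called 1 gene, Scd1, downward in the knockout, where 1.84% and 2.45% of all genes tested were called, and Scd1 was named after its values were seen. It was at 1.64 to 4.40 TPM in the macrophage course and at 0.55 to 1.18 TPM in the granulocyte course in controls, and at 0.08 to 0.23 TPM and 0.12 to 0.37 TPM in the knockout. All knockout values thus lay under the pseudocount of 1 TPM. The call was absent at a pseudocount of 0.1 TPM, with the 5 TPM filter, after scaling or with only the groups of the contrast fitted.

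At the later stages the lists of neighbouring pathways were counted again. Of 11 tested liver X receptor genes and targets 8 were lower in the knockout and 0 higher at day 5 of the macrophage course, and 7 and 0 in the granulocyte course. Of all genes tested, 37.9% and 22.8% were lower at those stages and 5.11% and 9.2% higher. Rxra, the partner of these receptors, fell by 1.02 ± 0.14 in the first and 1.36 ± 0.14 in the second course (limma adjusted p = 1.58e-05 and 5.85e-07), from means of 19.9 to 9.26 TPM and of 11.7 to 3.92 TPM. Lpcat3, which places polyunsaturated fatty acids into phospholipids, fell by 0.63 ± 0.09 in the first and 0.72 ± 0.09 in the second (limma adjusted p = 1.4e-05 and 3.44e-06). By day 7, 3 of the 11 liver X receptor genes and targets were higher and 1 lower in the macrophage course, near the 27.4% and 12.5% of all genes tested. In the granulocyte course 1 was higher and 4 lower, where 32.1% and 12% of all genes tested were. Pltp, a phospholipid transfer protein, fell by 2.48 ± 0.45 there (limma adjusted p = 0.000227), from a mean of 79.5 to 15.2 TPM.

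Genes of cholesterol esterification and storage were lower for 7 of 9 genes at day 5 of the macrophage course and for 5 of 9 in the granulocyte course, with 0 higher in each. Of all genes tested, 37.9% and 22.8% were lower at those stages. Plin2, a coat protein of lipid droplets, fell by 1.21 ± 0.21 in the granulocyte course (limma adjusted p = 0.00016), from a mean of 1640 to 695 TPM, and Lipa fell by 1.40 ± 0.15 there (limma adjusted p = 5.91e-07). At day 7 of the macrophage course 3 were higher and 0 lower, where 27.4% of all genes tested were higher and 12.5% lower, so the higher count lay near the share of all genes. Among the 3 was Nceh1, a cholesterol ester hydrolase of macrophages, which rose by 0.85 ± 0.17 (limma adjusted p = 0.000665), from a mean of 150 to 266 TPM. The macrophage markers summed to 5010 to 5750 TPM in the knockout and to 3320 to 4010 TPM in controls at that stage, with 4 of 12 higher, and their part was not tested.

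Of 13 genes of SREBP processing and sterol sensing 7 were lower and 0 higher at day 5 of the macrophage course, where 37.9% of all genes were lower, with a median of -0.29 against -0.23. At day 7 of that course 3 were higher and 0 lower, where 27.4% of all genes were higher, with medians of 0.14 and 0.12. Erlin1, which takes part in the sterol-driven turnover of synthesis enzymes, fell by 0.89 ± 0.20 and 0.82 ± 0.23 at day 5 of the macrophage and granulocyte course (limma adjusted p = 0.00146 and 0.00941). Of 18 genes of fatty acid oxidation 8 were higher and 2 lower at day 7 of the macrophage course and 9 higher and 1 lower in the granulocyte course, where 27.4% and 32.1% of all genes tested were higher. Eci1, an isomerase needed to oxidise unsaturated fatty acids, rose by 1.08 ± 0.15 and 1.26 ± 0.13 (limma adjusted p = 1.26e-05 and 5.33e-07), from means of 23.4 to 50.1 TPM and of 15.9 to 39.7 TPM. Hadh, a dehydrogenase of the same route, was lower in the knockout at all 6 stages, with falls from 0.42 ± 0.11 at day 0 to 1.24 ± 0.11 at day 5 of the macrophage course (limma adjusted p = 0.00778 and 5.94e-08). Of the 19 tested genes of other fatty acid and glycerolipid synthesis, Dgat2 and Dgat1, which complete triglycerides, rose by 1.87 ± 0.26 and 0.89 ± 0.15 at day 0 (limma adjusted p = 3.12e-05 and 0.000171), the stage at which Scd2 and Acss2 were already lower. At that stage 2 genes of the list rose and 1 fell, where 13.1% of all genes tested were higher and 10.2% lower.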

How the data were processed

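RNA-seq libraries were made from total RNA with the KAPA stranded kit, per the labels' protocols. Both tables of 24411 genes hold TPM, the unit the authors deposited, and share the 12 columns of days 0 and 3. RSEM, DESeq2 1.38.3 and mm10 are named, per the submitters' processing notes; the annotation behind the gene symbols and the use of strand are not given in the sources used here. TPM keeps no depth and sums to a fixed total, so genes that gain share lower the values of the rest.

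The 36 libraries were put into groups by the labels' genotype, day and course. Values were analysed as log2(TPM + 1), so log2 differences understate the change of low genes. Genes had to reach 1 TPM in at least 3 libraries, which left 11953 for the macrophage course, 11905 for the granulocyte course and 11553 over days 5 and 7 of both courses. Linear models with 1 term per group and a trend in the moderated variance were fitted over the 24 libraries of each set (limma 3.58.1, R 4.3.3). Benjamini-Hochberg adjustment of the p-values was over all genes tested, with a threshold of 0.05, in 20 comparisons. The members, the gene lists and the rule for named genes were chosen with earlier results of these data known. By that rule Hmgcs1, Sqle, Insig1, Srebf1, Srebf2, Acly, Fasn and Scd2 were named in each comparison, with the 3 largest rises and falls among passing members without overlap that reached 5 TPM in the higher group, and up to 2 genes with the smallest p per pathway list. Differences that did not pass are printed for the knockout comparisons only. Ratios are of mean TPM.

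The settings tried were a pseudocount of 0.1 or 5 TPM, the filter dropped or raised to 5 TPM, scaling by median of ratios (factors from 0.8 to 1.21), a fit of only the groups in a contrast, a block for the replicate number, and each library left out. Leaving out control replicate 1 at days 3 and 5 was added after the data were seen, because of its low values for the synthesis genes. Equal replicate numbers paired the libraries between genotypes at day 5 of the macrophage course (correlations of deviations 0.301, 0.183 and 0.268, highest between unequal numbers 0.135). Between courses in controls the lowest correlation of equal numbers was 0.463 at day 5 and 0.237 at day 7. Unequal numbers reached 0.624 and 0.435 there, so pairing by number is not clear. The other comparisons did not pair by number. Replicates had a Pearson's r across genes from 0.973 to 0.997, and no libraries were identical. The fits were tested on simulated data. Coordinates are from GENCODE M21 on mm10, and promoters from the RefSeq table on GRCm38.p6.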

Additional observations from a re-analysis of the deposited data

Results flagged for a closer look

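The steps below were flagged because the change of a gene between days differed by genotype in a test of the difference itself, with limma over all genes. From day 0 to day 3 the knockout minus control difference in the step was 1.47 ± 0.24 for Hmgcs1, 1.03 ± 0.28 for Sqle, 1.5 ± 0.32 for Insig1, 0.91 ± 0.16 for Srebf1, 0.51 ± 0.12 for Acly and 2.08 ± 0.40 for Fasn on the log2 scale. Srebf2 and Scd2 did not pass for that step.

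From day 3 to day 5 of the macrophage course the difference was -1.58 ± 0.24 for Hmgcs1, -1.45 ± 0.28 for Sqle, -1.48 ± 0.32 for Insig1, -0.71 ± 0.16 for Srebf1, -0.83 ± 0.28 for Srebf2, -0.58 ± 0.12 for Acly, -2.04 ± 0.40 for Fasn and -1.12 ± 0.43 for Scd2. The values of Srebf1, Srebf2, Acly and Scd2 did not pass after median-of-ratios scaling (-0.42, -0.54, -0.29 and -0.83, limma adjusted p = 0.0735, 0.181, 0.0735 and 0.187). Srebf2 and Scd2 did not pass either when any of 6 and of 10 of the 12 libraries was left out (adjusted p 0.0508 to 0.0874 and 0.0569 to 0.125).

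From day 3 to day 5 of the granulocyte course the difference was -1.58 ± 0.24 for Hmgcs1, -1.48 ± 0.26 for Sqle, -1.79 ± 0.32 for Insig1, -0.65 ± 0.13 for Srebf1, -0.47 ± 0.13 for Acly, -1.47 ± 0.38 for Fasn and -1.03 ± 0.29 for Scd2. Acly did not pass after scaling (-0.36, limma adjusted p = 0.0796), and Scd2 did not pass without control replicate 1 at days 3 and 5 (-0.89, limma adjusted p = 0.0527). Fasn did not pass with only the groups of the contrast fitted (-1.47, limma adjusted p = 0.0516). The steps in and out of day 3 use the same day 3 libraries, so a high value in the first goes with a low value in the others.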

How the results depend on the processing

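The settings were tried on 123 values of named synthesis genes. These were all such values of the knockout comparisons and, in the other comparisons, only those that had passed. The share that passed, 97 of 123, is therefore not a pass rate over all named values. Of the 97, 66 passed with the same sign under every alternative, 31 lost the call under at least 1 and 0 changed sign. Depth is unknown for TPM, so what it limits could not be given. The pseudocounts and filters kept all counts of genes called within 1.5 times, apart from the day 7 course by genotype difference, where 0 genes were called at a pseudocount of 0.1 TPM, with the 5 TPM filter, after scaling or with the groups alone, against 1. Scaling gave 16 genes called at day 7 of the macrophage course against 10. With only the groups of a contrast fitted, 4 genes were called between genotypes at day 5 in each course, against 8 and 9, 4 and 1 in controls between days 5 and 7 of the macrophage and granulocyte course, 13 in controls between days 3 and 5 of the granulocyte course, 12 in controls between the courses at day 7, and 1 for the genotype difference between days 5 and 7 of the granulocyte course. The cause was not tested, except that fewer libraries enter that fit.

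Without control replicate 1 at days 3 and 5, 24 and 15 genes were called between genotypes at day 5 of the macrophage and granulocyte course, 18 in controls between days 5 and 7 of the granulocyte course, and 3 and 2 for the genotype difference in the step from day 5 to day 7. Leaving out each library in turn gave 3 to 4 genes called at day 0, 23 to 28 at day 3, 7 to 20 and 5 to 13 at day 5 of the macrophage and granulocyte course, and 8 to 9 and 6 to 8 at day 7. In controls it gave 18 to 20 for day 3 against day 0, 18 to 29 and 18 to 27 for day 5 against day 3, 7 to 11 and 1 to 14 for day 7 against day 5, and 0 and 6 to 8 between courses at days 5 and 7. For the genotype differences it gave 16 to 24, 20 to 29, 0 to 3, 22 to 29 and 0 to 2 for the 5 steps in the order of day 3 against day 0, the macrophage course and the granulocyte course, and 0 and 0 to 2 for the courses at days 5 and 7.

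Some differences that had not passed changed sign. After scaling these were Srebf2 at day 0 (-0.02), Sqle, Srebf2 and Fasn at day 5 of the macrophage course (0.04, 0.15 and 0.11), Insig1 at day 7 of the macrophage course (-0.05), and Insig1, Srebf2 and Fasn at day 7 of the granulocyte course (-0.19, -0.12 and -0.07). Without control replicate 1, Insig1, Srebf2 and Fasn at day 5 of the granulocyte course were at -0.19, -0.05 and -0.06. With 1 library left out, Srebf2 ranged from -0.05 to 0.18 at day 0, Scd2 from -0.13 to 0.02 at day 3, Srebf2 and Fasn from -0.44 to 0.16 and from -0.68 to 0.19 at day 5 of the macrophage course, Insig1, Srebf2 and Fasn from -0.19 to 0.33, from -0.05 to 0.35 and from -0.06 to 0.73 at day 5 of the granulocyte course, and Insig1 from 0.00 to 0.28 and from -0.07 to 0.23 at day 7.

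With the replicate number as a block, 5 genes were called in controls between days 5 and 7 of the granulocyte course against 3, and the other counts stayed within 1.5 times. At day 5 of the macrophage course, where the numbers paired the libraries, 2 genes were higher and 8 lower with the block.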
